A study of Arabidopsis thaliana with 7 samples.

Results

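CIRCADIAN CLOCK ASSOCIATED 1 (CCA1) is a MYB-related transcription factor that peaks around dawn and, with its close relative LHY, forms the morning arm of the Arabidopsis circadian clock. It binds short sites in gene promoters, the evening element among them, and is best known for repressing genes whose transcripts peak later in the day. Plants in light-dark cycles receive a dawn signal every day, whereas plants moved to continuous light run on the clock alone. The sites described here were bound by CCA1 in the list from light-dark cycles and had no overlapping site in the list from continuous light.

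Chromatin immunoprecipitation and sequencing had been done on CCA1 fused to GFP and driven by the CCA1 promoter, in whole 14-day-old seedlings of the WS-2 ecotype, grown on MS agar plates in 12 h light and 12 h dark. Seedlings kept in light-dark cycles and harvested at ZT2, that is 2 h after dawn, formed the LD group of 2 libraries. Seedlings entrained in the same cycles, then held in continuous light and harvested at ZT2, formed the LL group of 3 libraries. Both groups carried the tagged CCA1. Chromatin was fixed with formaldehyde and precipitated with anti-GFP, and the protocol names IgG and input controls. An LL library of ZT14 and an input library were not used here. The labels do not say whether the libraries of a regime came from separate sets of plants, and whole seedlings mix all tissues, so a site bound in few cells and a site bound weakly in many cannot be told apart.

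The authors deposited 1 pooled peak list per regime, with 1607 peaks for LD and 1433 for LL. The LD peaks were chosen by position: those on chromosomes 1 to 5 that shared not a single base with an LL peak, after peaks whose nearest gene is an rRNA gene, a tRNA gene or a pseudogene were dropped. This left 518 LD-only peaks of 1525 LD peaks, or 34.0% (95% Wilson interval 31.6 to 36.4%), and 1007 LD peaks that overlapped an LL peak, called shared LD peaks below. A further 20 LD-only peaks were dropped for their gene type. The LD-only peaks lay nearest to 506 genes, of which 12 had 2 such peaks, and 499 of these genes matched the RefSeq annotation, which is 1.32% of its 37899 nuclear genes. With 1 list per regime no test of a difference between the regimes, or between LD-only and shared peaks, was possible. All intervals cover counting error alone, because reads copied by PCR are no separate molecules and because peaks are not replicates of a regime.

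The LD-only peaks were on the whole the weaker LD peaks, although 12 ranked in the top score class. Of the 12 highest-scoring ones, 6 had their centre within 285 bp of an LL centre, which was the closest spacing of peaks within the LL list. Their median score, HOMER's measure of peak height, was 39 with a range of 31 to 134, against a median of 56 for shared LD peaks. They held a median of 38 tags against 54 in shared LD peaks, where a tag is 1 aligned read position. The scaled control tags had a median of 3.2 in both sets. The median fold over control was therefore 12.43 in LD-only peaks and 17.24 in shared LD peaks. When the LD list was cut into 4 classes of falling score, 3.14% of the top class (12 of 382 peaks), 21.8% of the second, 46.5% of the third and 64.6% of the lowest (246 of 381) were LD-only. The share of LD peaks that were LD-only differed little between chromosomes, at 31.7% on chromosome 1, 32.1% on chromosome 2, 34.1% on chromosome 3, 37.0% on chromosome 4 and 35.9% on chromosome 5.

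The depth of the lists moved with membership. An LD peak was listed with no fewer than 31 tags and an LL peak with as few as 17, but 1 tag was worth 3.44 normalised units in LD and 7.48 in LL. Tags of an LD peak and of an LL peak are therefore not on one scale, which holds for every gene below where both are given. On that normalised scale the lowest LL peak stood at 127.2, and 226 of 518 LD-only peaks (43.6%, 95% Wilson interval 39.4 to 47.9%) lay below it, against 119 of 1007 shared LD peaks (11.8%). Only 23 LD-only peaks (4.44%) exceeded the LL median of 194.6, against 477 shared LD peaks (47.4%). The scales may not be equal, since at shared sites the LD value was a median of 0.809 times the LL value (quartiles 0.657 and 0.997). With the LL values multiplied by this ratio, a setting chosen after seeing the data, the lowest LL value was 102.8 and 0 LD-only peaks lay below it. On that rescaled footing 105 LD-only peaks (20.3%) exceeded the LL median of 157.3, against 693 shared LD peaks (68.8%). The ratio rests on peaks that passed in both lists. A lack of binding in LL and a level too low to be listed there cannot be told apart, and how many LD-only peaks this touches depends on the scaling.

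**Figure D1:**
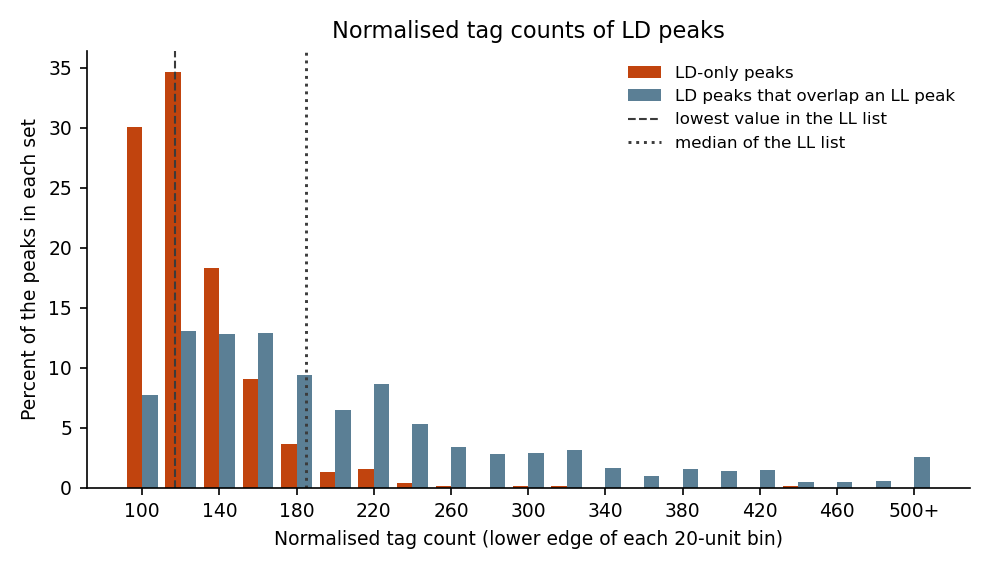
Percent of LD-only peaks (orange) and of LD peaks that overlap an LL peak (blue) in 20-unit bins of the normalised tag count, with the last bin holding all values of 500 and above. The dashed line marks the lowest LL peak (127.2) and the dotted line the LL median (194.6): 43.6% of LD-only peaks fall left of the dashed line and 4.44% right of the dotted one, on the deposited scales before any rescaling.

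Most LD-only peaks were far from any LL peak and beside genes with none. The LL list held 1433 peaks against 37899 nuclear genes, so most genes of the genome had no LL peak either. The rule also removed every LD peak that overlapped an LL peak, and distances for random positions were not computed. The median distance from an LD-only peak to the nearest end of an LL peak was 20452.5 bp (95% interval 17001 to 24298 bp), with a range of 2 to 551621 bp. In all, 393 peaks (75.9%) lay more than 5000 bp away, 61 (11.8%) within 1000 bp and 40 (7.72%) within 500 bp. The nearest gene of 440 peaks (84.9%, 81.6 to 87.8%) had no LL peak. The remaining 78 peaks (15.1%) were at genes that also had an LL peak, and 50 of these 78 stood beside a shared LD peak of the same gene. The 24 peaks within 200 bp of an LL peak had a median score of 50. In the farther distance classes the median lay between 37 and 39.5 without a steady fall, and it was 39 for the 132 peaks more than 50000 bp away.

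**Figure D2:**
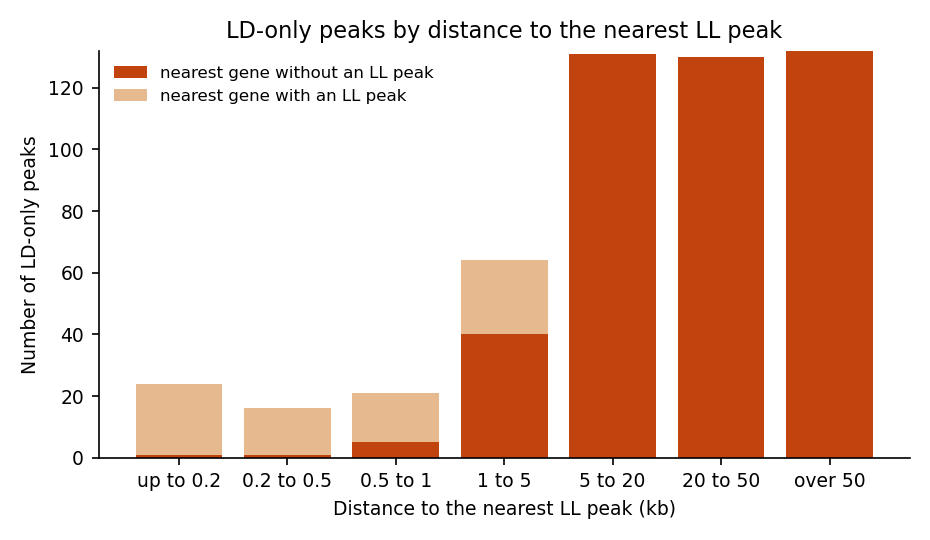
Number of LD-only peaks by the distance in kb between the nearest ends of the peak and an LL peak, split by whether the nearest gene had no LL peak (dark) or had one (light). All 393 peaks beyond 5 kb were at genes without an LL peak, and 23 of the 24 nearest ones were at genes with one.

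The LD-only peaks clustered at the transcription start site (TSS), as the shared LD peaks did, but a smaller share of them lay in the window from 300 to 100 bp upstream of it. The authors' annotation placed 297 of them in promoter-TSS regions (57.3%, 53.0 to 61.5%), 99 in intergenic sequence (19.1%), 70 at transcription termination sites (13.5%), 22 in introns, 18 in exons, 7 in 3′ UTRs and 5 in 5′ UTRs. For shared LD peaks the promoter-TSS share was 62.5% (59.4 to 65.4%). Over whole sets, the median LD-only peak was 580 bp from its TSS in either direction (460 to 727 bp), and the median shared LD peak 471 bp (410 to 541 bp). The peak centre was upstream of the TSS for 65.1% of LD-only peaks (60.9 to 69%) and for 72.3% of shared LD peaks (69.4 to 75%). The fullest 100 bp bin was the same in both sets, the one ending at the TSS, with 79 LD-only peaks (15.3%) and 142 shared LD peaks (14.1%). That upstream window held 64 LD-only peaks (12.4%, 9.80 to 15.5%), against 193 shared LD peaks (19.2%, 16.9 to 21.7%). The first 100 bp of the transcribed region held 53 LD-only peaks (10.2%, 7.91 to 13.1%) and 72 shared LD peaks (7.15%, 5.72 to 8.91%). These windows were chosen after the profile had been seen.

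Differences in the same direction were seen among the lower peaks, although heights were not fully matched there. Among peaks of the 2 lower score classes, 423 LD-only and 339 shared, the window from 300 to 100 bp upstream held 12.3% of LD-only peaks (9.50 to 15.8%) and 18.9% of shared LD peaks (15.1 to 23.4%), with intervals that overlap at their ends. In the same classes 64.5% of LD-only peaks (59.9 to 68.9%) and 72.3% of shared LD peaks (67.3 to 76.8%) were upstream of the TSS. These intervals overlap too. The median score in these classes was 37 (36 to 38) for LD-only peaks and 40 (39 to 41) for shared LD peaks. The 500 bp windows around LD-only peaks had a median GC content of 34.1% (33.5 to 34.5%), against 32.9% (32.5 to 33.1%) around shared LD peaks, and in the 2 lower score classes the medians were 33.9% and 32.1%.

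**Figure D3:**
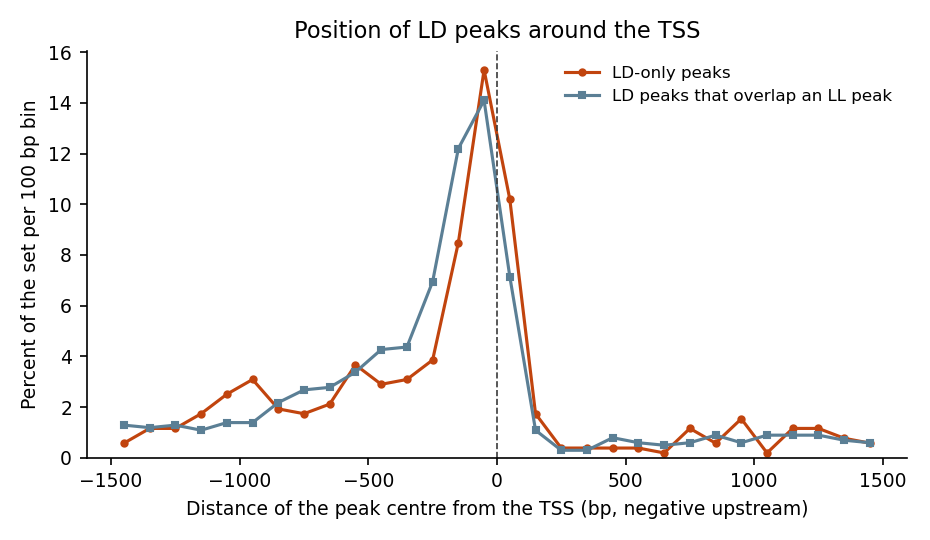
Percent of LD-only peaks (orange circles) and of LD peaks that overlap an LL peak (blue squares) per 100 bp bin by position of the peak centre relative to the TSS in bp, negative values being upstream. Both sets are highest in the bin that ends at the TSS (15.3% and 14.1%), and the LD-only line is the lower one from 300 to 100 bp upstream.

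The strongest LD-only peak was at HXK2 (AT2G19860), which encodes a hexokinase, the enzyme that phosphorylates glucose on entry into glycolysis. It lay at chr2:8570440-8570564 (TAIR10), centred 248 bp upstream of the TSS, with a score of 134 and 130 tags (exact 95% Poisson interval 108.6 to 154.4) over 4 control tags. A shared LD peak of nearly the same height, score 132 with 129 tags, stood at 519 bp upstream, and the LL list had its peak of score 122 with 142 tags at 511 bp upstream. HXK2 thus had a pair of equally high CCA1 peaks in LD and the farther one alone in LL. The centre of the LD-only peak was 263 bp from the LL centre. Centres of neighbouring peaks were at least 257 bp apart in the LD list and at least 285 bp apart in the LL list. The LL list held a single HXK2 peak, and whether the LL list could have held both sites was not tested.

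CBF1 (AT4G25490), which encodes a transcription factor that switches on cold-protective genes, had the third strongest LD-only peak. It lay at chr4:13021070-13021194, 1593 bp past the TSS at the end of the gene, with a score of 93 and 92 tags (74.2 to 112.8) over 4.5 control tags. The promoter of CBF1 had a shared peak at 760 bp upstream in both lists, with 189 tags in LD and 125 tags in LL, counts that are not on one scale. The LD-only peak was therefore at the 3′ end of a gene with a CCA1 peak in both lists, and 2212 bp from the LL peak. DREB1A, also known as CBF3, is the neighbouring member of the CBF cluster in the RefSeq annotation.

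Strong LD-only peaks far from any LL peak, at genes with none, were led by ENODL2 (AT4G27520), an early nodulin-like protein. Its peak at chr4:13751965-13752089, 122 bp upstream of the TSS, had a score of 80 and 80 tags (63.4 to 99.6) over 4.7 control tags, and the nearest LL peak was 17000 bp away. This was rank 223 in the LD list and the best rank among the 393 peaks of this kind. The next ones were in the last exon of the hydrolase gene AT1G02660 (score 74, 73 tags) and 919 bp upstream of MSL6, a mechanosensitive channel gene (score 74, 73 tags). SKP1, a core subunit of SCF ubiquitin ligases, had a peak 1973 bp upstream with a score of 67 and 63 tags, 54324 bp from the nearest LL peak. HHP4, a heptahelical membrane protein gene, had 65 tags. XTH7, which encodes a cell wall xyloglucan-modifying enzyme, had 63 tags at 422 bp upstream. Each of these peaks had between 1.5 and 4.7 control tags. The authors' genomic category named another gene, AT4G27530, AT1G75940 and AT4G37670, for the peaks at ENODL2, SKP1 and HHP4. It did so too for the peaks at AT2G29679, PHS2 and ARR6 described below. Of the 419 LD-only peaks whose category names a gene, this held for 59 (14.1%).

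The 4 highest folds over control rested on very low control values. AT1G27880, a DNA helicase gene, reached 188.05-fold with 40 tags over 0.2 control tags, and AT3G42130, a glycine-rich protein gene, 117.53-fold with 50 tags over 0.4. CYP71B11, a cytochrome P450 gene, had 59 tags over 0.9 control tags, 69.34-fold. P5CS1, the enzyme that starts proline synthesis under drought and salt stress, had 36 tags over 0.6 control tags at 69 bp upstream of its TSS, 56.41-fold. Their scores, 39 to 60, were those of middling LD peaks.

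At 25 genes the list of each regime held a peak, but the LD and LL peaks lay at different places and the gene had no shared peak. These genes held 28 LD-only peaks. Their LD and LL tags, given below, are not on one scale and show no difference in binding strength. The centres of the highest LD-only peak and the LL peak were a median of 272 bp apart and within 500 bp of each other at 16 genes. The LD peak was the one nearer to the TSS at 13 of the 25 genes, so neither direction prevailed. THIC (AT2G29630), the first committed enzyme of the pyrimidine branch of thiamine synthesis, had an LD peak of 67 tags (51.9 to 85.1) at 42 bp upstream and an LL peak of 47 tags at 270 bp upstream. DIP2 (AT5G03210) had 66 tags in LD at 50 bp upstream and 25 tags in LL at 265 bp upstream. COR413PM1, a cold-induced membrane protein gene, had 47 tags in LD at 4 bp upstream and 19 tags in LL at 276 bp upstream. At these 3 genes the LD peak was within 50 bp of the TSS and the LL peak more than 200 bp upstream. Their centres were 228, 215 and 272 bp apart, closer than the 285 bp that separated LL centres at the least. Whether such pairs are 2 sites or 1 bound region was not tested.

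HCA2 (AT5G62940), a Dof transcription factor of vascular development, showed the opposite arrangement, with an LD peak of 69 tags at 748 bp upstream and an LL peak of 37 tags at 575 bp upstream. PHS2, the cytosolic glucan phosphorylase that acts in starch-derived maltose use, had 51 tags in LD at 138 bp past the TSS and 19 tags in LL at 84 bp upstream. AT2G29679, a hypothetical gene, had the second highest LD-only score, 95 with 94 tags, at 493 bp past the TSS, and its LL peak of 55 tags lay at 723 bp. AT4G16146 had LD-only peaks of 68 tags at 998 bp past the TSS and of 33 tags at 38 bp upstream, and its LL peak of 52 tags lay at 838 bp past the TSS. Of all LD-only peaks, 17 (3.28%) had a centre nearer to an LL centre than the 285 bp that separated LL centres at the least. The nearest LL peak overlapped no LD peak in 15 of these 17 cases, and in 2 cases it overlapped another LD peak.

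**Figure D4:**
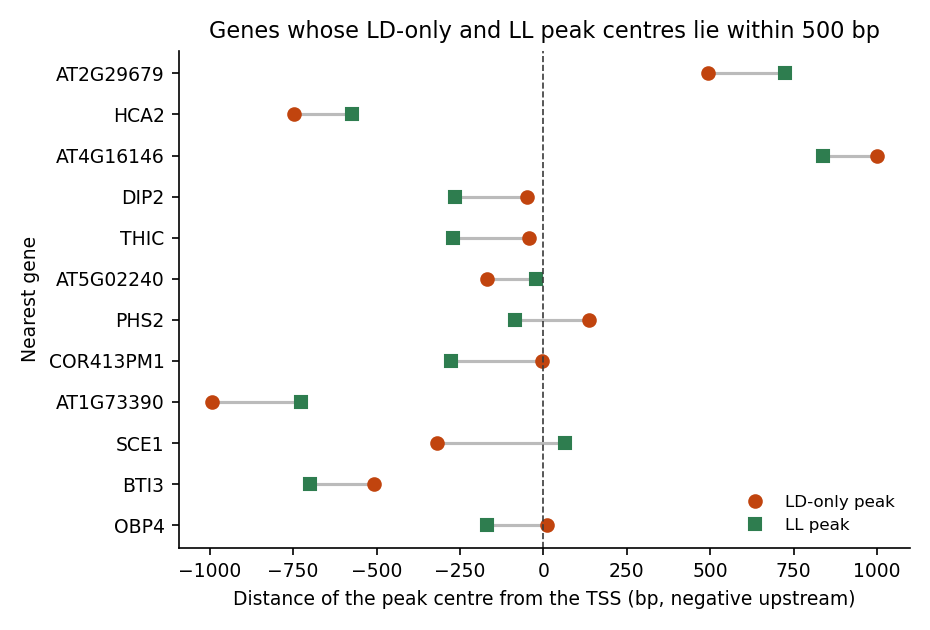
Distance from the TSS in bp (negative upstream) of the highest LD-only peak (orange circles) and the LL peak (green squares) at the 12 genes whose peak centres lie within 500 bp of each other and within 1200 bp of the TSS, ordered by LD score from the top. The LD peak is nearer to the TSS at THIC, DIP2 and COR413PM1 and farther from it at HCA2.

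The genes of 16 functional lists, 272 in all, were then looked up. An LD-only peak was nearest to 21 of them (7.72%, 5.10 to 11.5%), against 1.32% of all nuclear genes, while 75 of the 272 had a shared LD peak. The lists were drawn up around functions tied to the clock, so a share above that of all genes describes the lists and is no finding about LD-only peaks. Of the 21 genes, 11 also had an LL peak and 10 had none.

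Of the 14 morning clock genes listed, 1 had an LD-only peak, LHY (AT1G01060), the partner of CCA1. It lay 142 bp upstream of the TSS at chr1:37951-38075 with 40 tags (28.6 to 54.5) over 3.6 control tags, and LHY had no shared peak and no LL peak within 78719 bp. No LD-only peak was nearest to any of the 5 PRR genes, the 12 evening clock genes or the 16 B-box genes of these lists, whereas 3, 9 and 5 of these had a shared LD peak. Related genes outside those lists, named after their values were seen, did have LD-only peaks. TIC (TIME FOR COFFEE), a clock regulator, had 39 tags at 82 bp past the TSS and 35 tags at 2703 bp upstream, and its LL peak of 21 tags lay at 1176 bp upstream. COL5, a B-box gene of the CONSTANS-LIKE family, had 52 tags at 2865 bp past the TSS, and its LL peak of 21 tags lay at 1536 bp upstream. PHOT1, a blue-light receptor of phototropism, was the light signalling gene with an LD-only peak, of 38 tags at 762 bp past the TSS, beside a shared peak at the TSS.

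Photoperiodic flowering had LD-only peaks at 4 of 15 genes, while 5 of the 15 had a shared LD peak. Of the 4 genes, 3 encode CYCLING DOF FACTORs, repressors of the flowering regulator CONSTANS in the morning. CDF1 had 2 of these peaks, of 46 tags (33.7 to 61.4) at 36 bp upstream and of 38 tags at 2568 bp past the TSS, both farther downstream than its shared LD peak of 36 tags at 423 bp upstream. The LL list had 37 tags at 428 bp upstream of CDF1. CDF5 had 45 tags at 924 bp upstream, farther out than its shared LD peak of 63 tags at 9 bp upstream. CDF2 had 33 tags at 1174 bp upstream and no LL peak. COL1, a relative of CONSTANS that also carries B-box domains, had 39 tags at 2305 bp past its TSS and no LL peak.

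Cold response had LD-only peaks at 5 of 21 genes, while 8 of the 21 had a shared LD peak. Beside CBF1 and COR413PM1 the genes with an LD-only peak were KIN2, ZAT12 and GOLS3, which had no LL peak. KIN2 encodes a small hydrophilic protein induced by cold, and its peak at 42 bp upstream had 61 tags (46.7 to 78.4) over 3.8 control tags, 64929 bp from the nearest LL peak. ZAT12, a zinc finger factor of cold and high-light responses, had 48 tags at 992 bp upstream. GOLS3, a galactinol synthase of the raffinose pathway, had 35 tags at 211 bp upstream. The low-temperature and salt responsive gene AT4G30650, outside the list, had 68 tags at 167 bp upstream and lay 911 bp from an LL peak.

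Cytokinin signalling had LD-only peaks at 4 of 18 genes, while 5 of the 18 had a shared LD peak. ARR6 and ARR7, response regulators that dampen cytokinin signalling, had 44 tags at 82 bp upstream and 46 tags at 219 bp upstream. ARR6 had no LL peak, and ARR7 had a shared LD peak of 54 tags at 1370 bp upstream. CRF2 and CRF3, cytokinin response factors, had LD-only peaks of 33 and 37 tags beside shared LD peaks of 58 and 80 tags, so at both genes the site found in LD alone was the lower one.

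The remaining lists had 2 LD-only genes at most. Starch metabolism had PHS2 and PGM1, the plastid phosphoglucomutase that feeds starch synthesis, with 34 tags at 20 bp past the TSS. Jasmonate signalling had JAZ3, a repressor of jasmonate responses, with 64 tags (49.3 to 81.7) at 1120 bp upstream and 24547 bp from an LL peak. Phenylpropanoid synthesis had 4CL1, with 43 tags at 1020 bp upstream. Photosynthesis had LHCA4, an antenna protein of photosystem I, with 47 tags at 29 bp upstream. JAZ3, 4CL1 and LHCA4 had no LL peak. The abscisic acid, gibberellin and auxin lists, of 26, 17 and 14 genes, had none, whereas 3, 4 and 0 of these had a shared LD peak. No gene of the auxin list had an LL peak either. Auxin genes outside that list did have LD-only peaks and are given at the end.

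**Figure D5:**
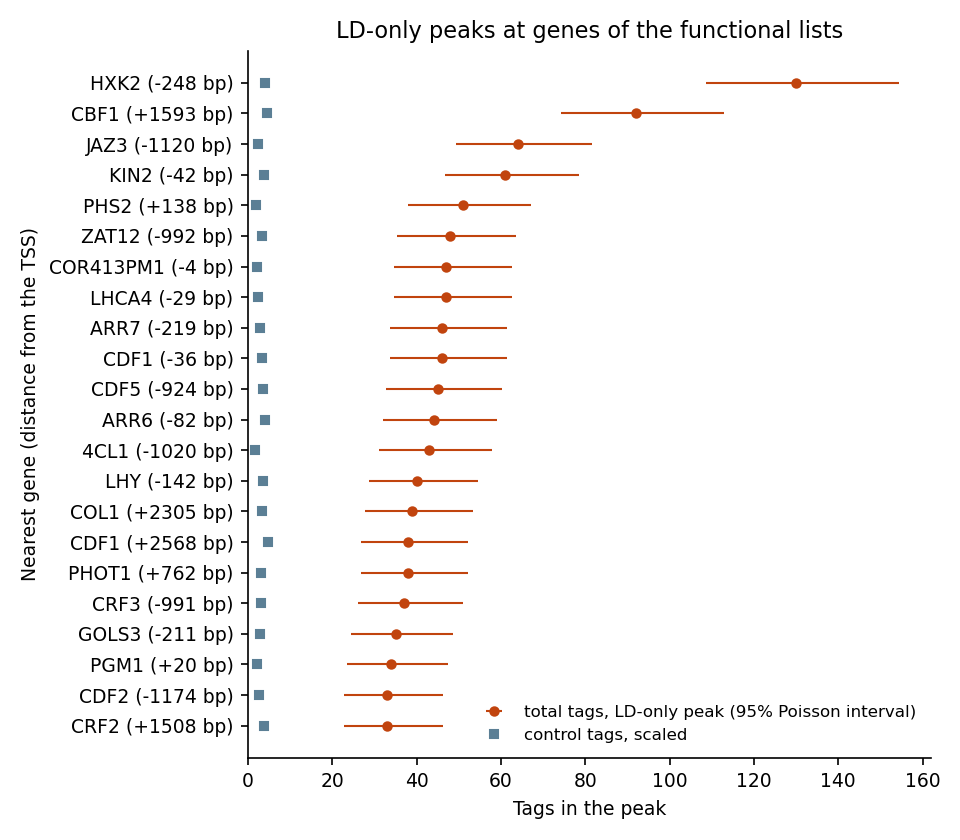
Total tags in each LD-only peak nearest to a gene of the functional lists (orange circles, bars are exact 95% Poisson intervals) and the scaled control tags (blue squares), ordered by tags. HXK2 (130 tags) and CBF1 (92 tags) stand above the others, which lie between 33 and 64 tags.

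Several genes had 2 LD-only peaks. ANT, an AP2 factor of organ growth, had them at 4178 and 2941 bp upstream with 47 and 46 tags, and no LL peak. CYP86A7, a fatty acid hydroxylase of the P450 family, had both in its only exon, with 53 tags at 294 bp and 40 tags at 935 bp past the TSS. AT1G67340, an F-box protein gene, had them at 3682 and 4851 bp upstream with 46 and 33 tags. ELP, an extensin-like gene, had 50 tags at 1727 bp upstream and 33 tags at 1821 bp past the TSS. It also had a shared LD peak of 41 tags at 2023 bp upstream. The LL list held ELP peaks at 2031 bp upstream and 3277 bp past the TSS.

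The rule has an edge of 1 base. Just inside it were the peaks at HB23, AT1G75180 and AT5G02240, which lay 2, 4 and 4 bp from an LL peak. Just outside it were the shared LD peaks at RCI2A, PMT6 and AT4G17098, which overlapped an LL peak by 1, 7 and 13 bases.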

How the data were processed

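The tools were HOMER 4.7, Bowtie2 2.2.1, Trimmomatic 0.33 and CASAVA 1.8, and the build was TAIR10, per the submitters' processing notes. Per the file headers, the deposited peaks passed an irreproducible discovery rate filter and come from the combined libraries of a regime. The control library, the filter threshold and duplicate handling are not stated in the sources used here. For each peak the authors deposited a tag count, its normalised value, a score and the ratio (fold) of tags to control. The normalised tag count and the scaled control tags were deposited as a signal. The authors deposited the annotation too: genomic category, nearest promoter's gene, distance to the TSS, and GC as a fraction of a 500 bp window. The columns left 0 per-sample values unused.

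LD peaks are 124 bp long and LL peaks 158 bp. Ends were read as included in the peak, and a distance of 0 or less between ends counted as overlap. Medians carry binomial order-statistic intervals, shares Wilson intervals and tags exact Poisson intervals, all at 95%. Python 3.11.15, pandas 2.3.3, scipy 1.17.1 and matplotlib 3.10.9 were used, and the overlap code was tested on simulated peaks. Gene names came from the files and, for neighbours and list members, from RefSeq. No genome was used here, so sequences and motifs were not analysed.

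Genes were named as the nearest genes of the 12 highest-scoring LD-only peaks, of the 8 highest-scoring ones over 5000 bp from LL at genes without an LL peak, of the 4 highest folds, of up to 6 genes with 2 peaks, of list members, and of 3 peaks on each side of the overlap rule. The members, lists and this rule were chosen with earlier results of these data known.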

Additional observations from a re-analysis of the deposited data

How the results depend on the processing

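No paired analysis was possible because each list pools the libraries of a regime, and for the same reason no library could be left out. Of 90 recomputed values, 70 stayed within the main interval or 1.5 times the main count and 20 moved. All describe LD-only peaks or list members alone, so the differences from shared LD peaks were not recomputed in these settings. The number of LD-only peaks was 95 in the upper 50% of LD peaks by score, 905 against the upper 50% of LL peaks, and 292 with a normalised tag count of at least the lowest LL value, an alternative chosen after seeing the data. With the lowest LL value rescaled by the LD to LL ratio at shared peaks, also chosen after seeing the data, the number stayed 518. That setting removed no LD-only peak, so its values repeat the main ones. In these settings the LD-only share of LD peaks was 12.5%, 59.3% and 24.7%, and it was 30.0% when gaps up to 1000 bp counted as shared, 38.2% when an overlap of 50% of both peaks was needed, and 31.4% with as many LD as LL peaks. The median distance to an LL peak was 14821 bp in the upper 50% of LD peaks, 44633 bp against the upper 50% of LL peaks, 25356 bp with gaps up to 1000 bp as shared, and 15503 bp with the 50% overlap. The share at genes without an LL peak was 76.8%, 92.9%, 94.7% and 75.9% in these 4 settings, 81.5% above the lowest LL value, and 90.5% when centres within 500 bp counted as shared. Median GC was 34.7% in the upper 50% of LD peaks. Each setting by its construction changes which peaks enter or count as shared, and no other cause was tested. With the authors' annotation column in place of the nearest promoter, 19 list members had an LD-only peak in place of 21. The motif alternatives were not run. The pooled lists and the unequal depth limit every statement about a site missing from LL.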

Other observations

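Other gene groups among the 506 nearest genes were grouped by their descriptions after the values had been seen, so their counts are descriptions without a test. Of all 506 genes, 434 (85.8%) had no LL peak, so a small group without any is close to what the whole set shows. Genes found by words for protein kinases and their subunits numbered 20 (3.95%), against 22 of the 935 nearest genes of shared LD peaks (2.35%). None of these 20 had an LL peak, but the words missed CKL6, a casein kinase gene, and the receptor kinase PHOT1, which had one. The 20 included CPK5, a calcium-dependent kinase of defence signalling, with 41 tags, the stomatal receptor kinase ERL2 with 33 tags and MAPKKK18 with 33 tags. Transporter genes numbered 19 (3.75%) against 23 of 935 (2.46%), among them the nitrate transporter NRT1.1, whose intron held a peak of 33 tags. NIA2, a nitrate reductase gene, had 54 tags in its 3′ UTR. Genes of ubiquitin ligase domains were as frequent in both sets, at 17 of 506 (3.36%) and 31 of 935 (3.32%).

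Genes with Dof in their description or an OBF binding protein name numbered 7 of the 506 LD-only nearest genes (1.38%, 0.672 to 2.83%). Among shared nearest genes they numbered 3 of 935 (0.321%, 0.109 to 0.939%), with overlapping intervals. A gene with both kinds of peak counts in both sets, as CDF1 and CDF5 do. The LD-only ones were CDF1, CDF2, CDF5, HCA2, OBP4, TMO6 and AT1G28310. Of these 7 genes, 3 had no LL peak. Genes found by the words searched for MYB factors numbered 4 of 506 (0.791%) and 11 of 935 (1.18%). That search missed MYB3 and MYB59, which also had LD-only peaks, so these MYB shares are not to be compared. Genes of auxin response in the wider sense numbered 6 (1.19%) and 7 (0.749%). Within that wider auxin group, auxin response factors numbered 3 and 0: ARF4 with 45 tags, ARF6 with 37 and ARF16 with 32. The microRNA genes MIR167a (AT3G22886, 38 tags), MIR169a (AT3G13405, 37 tags), MIR391 (AT5G60408, 39 tags) and MIR396b (AT5G35407, 37 tags) had LD-only peaks, against 3 microRNA genes with a shared LD peak. MIR167 is known to target ARF6 transcripts and MIR169 those of some NF-YA genes, not of all. Of the NF-YA genes, NF-YA1 and NF-YA4 had LD-only peaks of 56 and 37 tags, and whether MIR169 targets either was not examined. DCL1, the enzyme that processes plant microRNA precursors, had 43 tags at 2081 bp upstream. None of these ARF, microRNA, NF-YA and DCL1 genes had an LL peak.

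Tetrapyrrole and chlorophyll metabolism had 4 LD-only genes and 0 shared ones by the words searched: HEME1 with 53 tags at 31 bp upstream, NYC1 with 48 tags, HEMC with 38 tags and AT1G02350. The tRNA synthetase genes SYNC1 (53 tags at 28 bp upstream), OVA6 (42 tags) and TWN2 (33 tags), and AT3G16565, whose protein has a tRNA synthetase domain (52 tags), had LD-only peaks, against 0 among shared nearest genes. All 8 of these genes were without an LL peak. Words chosen after the genes had been seen favour the set they were drawn from.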
